A study of Homo sapiens with 4 samples.

Results

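Signalling from growth factor receptors through RAS, RAF, MEK and ERK kinases switches on genes whose products dampen the same cascade. The 10 genes described here belong to that feedback layer or to its nuclear output: the dual-specificity phosphatase genes DUSP1, DUSP4, DUSP5 and DUSP6, the Sprouty gene SPRY4, the Sprouty-related genes SPRED1 and SPRED2, the ETS transcription factor genes ETV4 and ETV5, and PHLDA1. They were taken as every probe set whose annotated gene symbol equals one of these names, whatever its signal, which gave 28 probe sets for 10 of the 19890 genes that have a probe set of their own on the array. The rule uses no measured value.

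The cells were SAS, an established human line of oral squamous carcinoma, kept in serum-containing medium. All cells, controls included, had been infected with a retrovirus that makes short hairpin RNA, from which the cell cuts a small RNA that silences messengers of matching sequence, under a U6 promoter. In the knockdown group the hairpin matched SPINT1, which encodes HAI-1, an epithelial membrane protein that inhibits serine proteases, and in the control group it was a scrambled form of that sequence. Each group has 2 Affymetrix arrays, labelled experiment 1 and experiment 2. The labels do not say whether the infected cells are a clone or a pool, or whether separate cultures lie behind the 2 arrays, and the p-values therefore cover just the spread between arrays, which may be technical. The hairpin sequences are shown because, by the labels, the hairpin is what separates the groups. Capitals mark the 9 of 21 positions at which both hold the same base.

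SPINT1 target: GGGcaGGcatagaCttGAaGg
Scrambled control: GGGacGGagatttCacGAgGa

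Values are MAS5 signals, probe set brightness on a linear scale, which the authors had scaled so that every array has the same trimmed mean. Changes are differences of mean log2(signal + 16), knockdown minus control, and therefore understate the change of dim probe sets. They were tested with limma over the 27307 probe sets whose mean signal was at or above the median of all (58.9), and "called" means an adjusted p under 0.05. Of the probe sets on the array, 45.6% to 48.1% were called present (detection p under 0.05) on each array. SPINT1 read 135 and 282 on the knockdown arrays and 1451 and 1445 on the control arrays, a log2 change of -2.79 with SE 0.25 (adjusted p = 5.7e-05). Its other probe set, present on no array, read 202.5 and 262.9 against 222.3 and 281.8 (log2 change -0.11, adjusted p = 0.78). Of 12 epithelial and squamous markers 11 were present on all 4 arrays, and KRT6A was present on 2. Markers of other cell types were mixed. Of 6 leukocyte markers 3 were present on no array, PTPRC and CD3E among them, while CD14 was present on all 4 and ITGAM and LAPTM5 on 3, and LAPTM5 was called higher (log2 change 1.34, adjusted p = 0.029). Their summed signal was 916 and 858 on the knockdown arrays and 926 and 727 on the control arrays. Of 5 endothelial markers VWF and KDR were present on no array, CDH5 on 4 and PECAM1 and TEK on 3. CDH5 and TEK were called higher, and the sum was 980 and 1345 against 655 and 636. Of 6 fibroblast markers COL3A1, DCN and PDGFRB were present on no array, COL1A1 on 3, LUM on both knockdown arrays alone and THY1 on 1, with sums of 375 and 403 against 423 and 326. The part of these markers in the results was not tested. In the test as a whole 15.6% of probe sets and 19.4% of genes were called, so a call by itself was common in this comparison. Of the called probe sets 46.8% were higher, or 35.1% with arrays centred on the median of all probe sets.

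Of these feedback genes DUSP6 alone changed by more than 2-fold on a called probe set: it fell by 2.18-fold to 2.24-fold on its 3 probe sets, where 2.87% of all genes tested were called lower by at least 2-fold. In bulk RNA fewer cells that make a transcript and less of it per cell cannot be told apart. DUSP1, DUSP5 and SPRED2 rose by 1.31-fold to 1.35-fold, and 1 of the 5 PHLDA1 probe sets fell. DUSP4, SPRY4, SPRED1, ETV4 and ETV5 had no called probe set. Read on the brightest probe set of each gene, 3 of 10 genes were higher (8.79% over all genes tested), 1 was lower (10.6%) and 6 were not called, with a median log2 change of 0.22 against 0.02 over all genes tested. The count of higher genes was 0 without control array 1, without control array 2, with no filter and with no variance trend, and 1 with the mean over a gene's probe sets. Over probe sets, 22 of 28 reached the level needed for testing: 3 were higher (7.33% over all probe sets tested), 4 were lower (8.32%) and 15 were not called. Of the other 6, 4 were present on no array. Of the 4 called lower, 3 are probe sets of DUSP6.

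**Figure D1:**
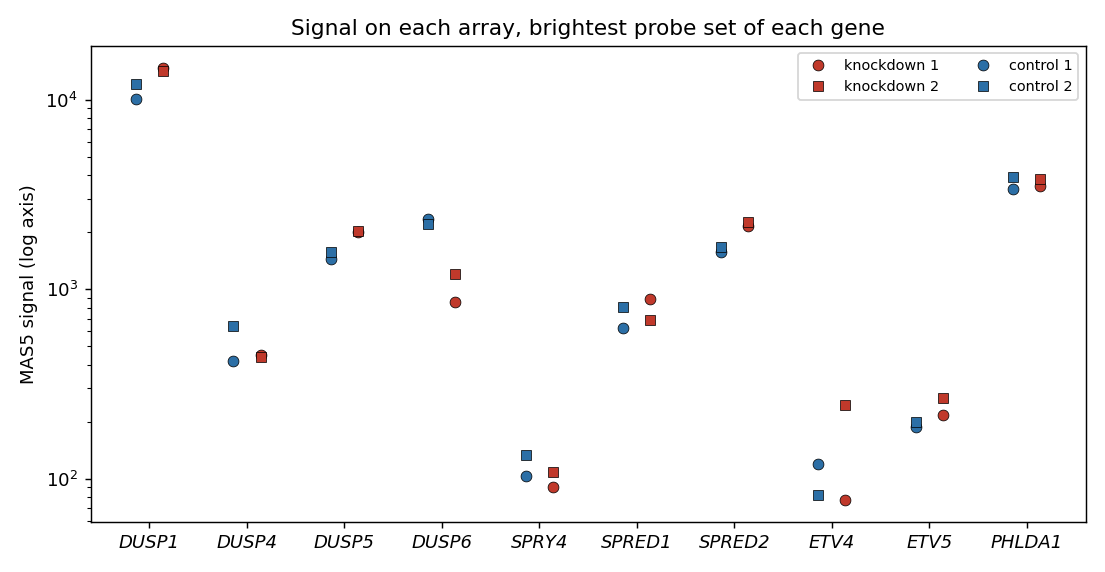
MAS5 signal (log axis) of the brightest probe set of each of the 10 genes on each array; circles are experiment 1, squares experiment 2, blue the control and red the knockdown group. The knockdown arrays lie clear below the controls for DUSP6, and above them for DUSP1, DUSP5, SPRED2 and ETV5, the last of which was not called.

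The windows around the annotated start sites of DUSP6, which fell, and of DUSP1 and SPRED2, which rose, are shown so that they can be compared base for base. Each holds 250 bases before and 50 bases after a RefSeq start site (build GRCh38.p14) and reads 5′ to 3′ along the gene. DUSP6 lies at chr12:89352452-89352751, DUSP1 at chr5:172771146-172771445 and SPRED2 at chr2:65432550-65432849, all on the minus strand. Capitals mark matches on either strand to TGACGT (the core of a cAMP response element), CCGGAA (an ETS site) or TGANTCA (an AP-1 site).

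DUSP6: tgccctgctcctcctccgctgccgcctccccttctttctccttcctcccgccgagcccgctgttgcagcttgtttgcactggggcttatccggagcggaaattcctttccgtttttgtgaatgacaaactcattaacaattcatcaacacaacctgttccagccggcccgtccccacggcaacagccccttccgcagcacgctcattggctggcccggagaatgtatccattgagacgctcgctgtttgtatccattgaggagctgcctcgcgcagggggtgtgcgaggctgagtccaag
DUSP1: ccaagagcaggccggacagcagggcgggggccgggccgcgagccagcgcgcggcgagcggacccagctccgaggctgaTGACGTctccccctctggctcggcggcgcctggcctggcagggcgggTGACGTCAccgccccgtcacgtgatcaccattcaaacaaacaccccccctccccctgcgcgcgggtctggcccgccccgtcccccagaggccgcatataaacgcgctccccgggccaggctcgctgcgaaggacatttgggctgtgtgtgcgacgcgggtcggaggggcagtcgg
SPRED2: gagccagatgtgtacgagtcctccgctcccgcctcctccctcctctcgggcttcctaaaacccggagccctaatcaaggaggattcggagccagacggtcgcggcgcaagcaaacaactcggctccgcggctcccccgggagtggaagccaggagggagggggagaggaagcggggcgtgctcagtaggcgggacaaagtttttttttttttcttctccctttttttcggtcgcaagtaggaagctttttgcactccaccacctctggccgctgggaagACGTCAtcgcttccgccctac

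The DUSP6 window held no match to any of these letters, nor to GGGCGG (a GC box) or to a loose form of the serum response element (CC and GG around any 6 bases). The DUSP1 window held 3 matches to TGACGT, of which those starting at bases -125 and -123 are the same palindrome read on both strands. It also held 4 GC boxes and 5 matches to the loose serum response form. The SPRED2 window held 1 match to TGACGT, at base 30 after the start, 1 GC box and 2 matches to the loose serum response form. Among all 35116 windows, 8.0% held TGACGT, 17.2% CCGGAA, 7.7% TGANTCA, 45.0% GGGCGG and 78.2% the loose serum response form. Windows were given for 6 of the 10 genes: the others were SPRY4, SPRED1, PHLDA1, with the only CCGGAA match among them, and a second SPRED2 start site, with 2 TGANTCA matches. Apart from the DUSP1 palindrome no matches in capitals overlapped. These letters are a description of short windows and say nothing of sites elsewhere in the genes.

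The dual-specificity phosphatases remove phosphate from both the tyrosine and the threonine of activated MAP kinases. DUSP6 is a cytoplasmic phosphatase of ERK, and its transcript is itself raised by ERK signalling. Its brightest probe set, 208891_at, which the deposited annotation aligned to chromosome 12, 88265969 to 88270295, minus strand (the build is not given in the sources used here), read 858 and 1205 on the knockdown arrays and 2355 and 2208 on the control arrays. The knockdown arrays lay far below the controls, and knockdown array 1 was the lower of the pair. The log2 change was -1.15 with SE 0.15 (adjusted p = 0.00059), a fall of 2.22-fold.

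The second DUSP6 probe set, 208892_s_at, read 920 and 1092 in knockdown and 2211 and 2202 in control cells. Its control arrays were close together and about as far above the knockdown arrays as before, with a log2 change of -1.13 with SE 0.12 (adjusted p = 0.00017). The third, 208893_s_at, read 576 and 455 against 1124 and 1211, a log2 change of -1.16 with SE 0.15 (adjusted p = 0.00046), and here knockdown array 2 was the lower. The 3 probe sets interrogate the same transcript and are not replicates. All 3 were present on all 4 arrays, 208893_s_at with detection p of 0.0461 and 0.0303 on the knockdown arrays, near the limit of 0.05. Under the 14 other settings tried the log2 change of the brightest lay between -1.39 and -0.91, and all 3 were called in every one, with a highest adjusted p of 0.048. On its brightest probe set DUSP6 ranked 258 of 12593 genes from the largest fall, and 238 genes called lower had a fall at least as large, itself included. Of 17 other genes tested within 5 megabases of it, 1 was higher and 2 were lower, with a median log2 change of -0.14.

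**Figure D2:**
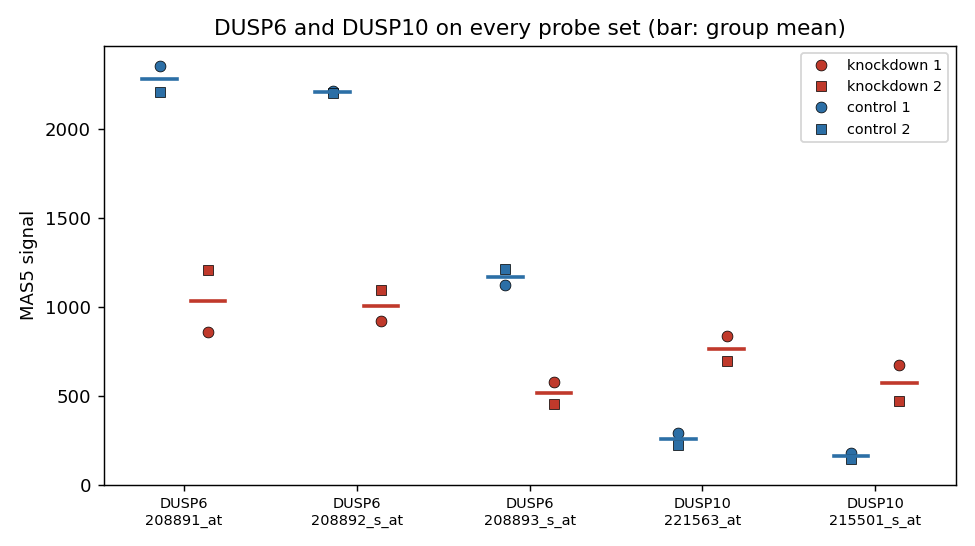
MAS5 signal (linear axis from 0) of every probe set of DUSP6 and of DUSP10, a phosphatase gene outside the 10, on each array, with bars at the group means of 2 arrays. Control arrays (blue) lie above knockdown arrays (red) on all 3 DUSP6 probe sets and below them on both DUSP10 probe sets.

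DUSP1 encodes a nuclear phosphatase that acts on p38 and JNK as well as ERK and is induced within minutes by growth factors and stress. Its brightest probe set, 201041_s_at, read 14756 and 14201 on the knockdown arrays and 10043 and 12095 on the control arrays. The groups did not overlap, but the control arrays stood further apart than the knockdown arrays. The log2 change was 0.39 with SE 0.12 (adjusted p = 0.047), a 1.31-fold rise at the edge of the threshold. It was 0.26 (adjusted p = 0.51) without control array 1 and 0.53 (adjusted p = 0.11) without control array 2, and the call was also lost without the filter (0.16), without the variance trend (0.20) and with arrays centred on their median (0.056). The other probe set, 201044_x_at, whose suffix marks probes that may bind other transcripts, read 879 and 324 against 256 and 387. Only knockdown array 1 stood out, and the groups overlapped (log2 change 0.74, SE 0.36, adjusted p = 0.20). Without knockdown array 1 its log2 change was 0.04 (adjusted p = 0.94), and without knockdown array 2 it was 1.43 (adjusted p = 0.0028).

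DUSP5 encodes a nuclear phosphatase specific for ERK. Its single probe set read 1995 and 2036 on the knockdown arrays and 1442 and 1580 on the control arrays, so that both knockdown arrays were higher than both controls. The log2 change was 0.41 with SE 0.11 (adjusted p = 0.028), a 1.33-fold rise. The adjusted p was 0.26 without control array 1, 0.093 without control array 2 and 0.054 without knockdown array 2, with log2 changes of 0.35, 0.48 and 0.40.

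DUSP4 encodes a nuclear phosphatase related to DUSP1. Its brighter probe set, 204015_s_at, read 448 and 441 against 417 and 638, where control array 2 alone stood high, and had a log2 change of -0.21 (95% interval -0.64 to 0.22, adjusted p = 0.52). The other, 204014_at, read 464 and 321 against 465 and 623, with knockdown array 1 and control array 1 nearly level, and had a log2 change of -0.46 (interval -0.92 to -0.01, adjusted p = 0.16). Without knockdown array 1 that value was -0.72 (adjusted p = 0.041). A fall as large as the value measured for DUSP6 lies outside both DUSP4 intervals. The interval of 204014_at still overlaps those of DUSP6, which end as high as -0.82, so falls of equal size are not excluded.

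Sprouty and SPRED proteins act further up the cascade. Sproutys are docking proteins that hold back RAS activation by receptors, and SPRED proteins bring neurofibromin, the RAS-inactivating protein encoded by NF1, to the membrane. SPRED2 was the member of this group that changed. Its bright probe set, 212458_at, read 2148 and 2251 on the knockdown arrays and 1573 and 1666 on the control arrays. Replicates were close and the groups well apart, with a log2 change of 0.44 with SE 0.11 (adjusted p = 0.020), a 1.35-fold rise. The adjusted p was 0.18 when control array 1 was left out and 0.092 when control array 2 was, at log2 changes of 0.40 and 0.48. The other SPRED2 probe sets were present on no array. The highest of their readings was 28.2, and 214026_s_at was aligned to the strand opposite to the gene.

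SPRED1 was not called. Its bright probe set, 226837_at, read 889 and 691 against 623 and 805, an overlap of the groups in which the arrays of experiment 1 and experiment 2 ran in opposite order, with a log2 change of 0.14 (95% interval -0.23 to 0.51, adjusted p = 0.62). A second, 235074_at, read 125 and 123 against 154 and 116 (log2 change -0.10, adjusted p = 0.84). The third lay under the level for testing, with readings between 34.0 and 60.0. The interval of SPRED1 still contains the change measured for SPRED2, so the data do not show that these paralogs differ.

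SPRY4 was dim. Its brighter probe set, 221489_s_at, read 90.2 and 109 against 103 and 134, was present on 3 arrays, and had a log2 change of -0.22 (95% interval -0.85 to 0.42, adjusted p = 0.67). The other, 220983_s_at, read 101 and 51.2 against 52.6 and 28.0 and was not tested. Each of these SPRY4 probe sets had 2 alignments in the deposited annotation, on chromosomes 5 and 11, and which transcript they read was not tested.

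ETV4 and ETV5 are ETS transcription factors of the PEA3 group, whose activity and transcripts rise with ERK signalling in many epithelial cells. No ETV5 probe set was called. Its brightest probe set, 203349_s_at, read 217 and 266 on the knockdown arrays and 188 and 199 on the control arrays, with no overlap and a log2 change of 0.29 (95% interval -0.18 to 0.76, adjusted p = 0.40). The next, 203348_s_at, read 150 and 193 against 104 and 75.8. Here too the groups were apart, with a log2 change of 0.83 with SE 0.28 (adjusted p = 0.072), and the adjusted p was 0.049 when only probe sets present on both arrays of a group were tested. Another, 216375_s_at, went the other way, 57.0 and 46.6 against 65.2 and 80.0, but was present on no array. The last 2 were also present on no array, and both were aligned to the strand opposite to the gene. The mean over all ETV5 probe sets was 0.15 with SE 0.24 (adjusted p = 0.74). Groups that do not overlap were common: they made up 57.8% of all probe sets tested.

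ETV4 lay near the limit of detection. Its brighter probe set, 1554576_a_at, read 77.3 and 246 against 120 and 82.2 and was present on no array. The knockdown arrays lay on either side of the controls, and the log2 change of 0.44 with SE 0.43 (adjusted p = 0.54) was 1.18 (adjusted p = 0.031) without knockdown array 1 and -0.31 without knockdown array 2. The other, 211603_s_at, read 53.1 and 96.2 against 85.1 and 77.2, was present on 3 arrays and aligned to 3 places in the genome, and gave -0.14 on the log2 scale (adjusted p = 0.83).

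PHLDA1 encodes a pleckstrin homology-like protein whose transcript follows growth factor signalling. Of its probe sets 225842_at alone was called. The brightest, 217996_at, read 3505 and 3829 on the knockdown arrays and 3395 and 3903 on the control arrays, with the knockdown values inside the range of the controls and a log2 change of 0.0092 (95% interval -0.24 to 0.26, adjusted p = 0.97). The next, 225842_at, had a 95% interval of -0.66 to -0.16, which overlaps that of 217996_at, so a difference between them is not shown. It read 1642 and 1546 against 2006 and 2253, with the groups clearly apart and a log2 change of -0.41 with SE 0.11 (adjusted p = 0.032). Without control array 1 its adjusted p was 0.088, without control array 2 it was 0.28 and without knockdown array 2 it was 0.068, at log2 changes of -0.50, -0.33 and -0.37.

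The 2 PHLDA1 probe sets differ in position. 217996_at was aligned to chromosome 12, 74706865 to 74711948, minus strand, and 225842_at to 74705493 to 74707309, which reaches further in the 3′ direction. The same alignment as that of 217996_at was given for 217997_at and 217999_s_at. Whether position bears on the values was not tested. Of the other PHLDA1 probe sets, 217997_at read 638 and 716 against 778 and 757, 217999_s_at read 411 and 302 against 415 and 497, and 218000_s_at read 137 and 116 against 132 and 154. All 3 had lower group means in knockdown cells, at log2 changes of -0.18, -0.35 and -0.16, and none was called (adjusted p between 0.25 and 0.74). A further probe set, annotated to PHLDA1 and a second locus, read 332 and 264 against 301 and 307 and was left out.

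**Figure D3:**
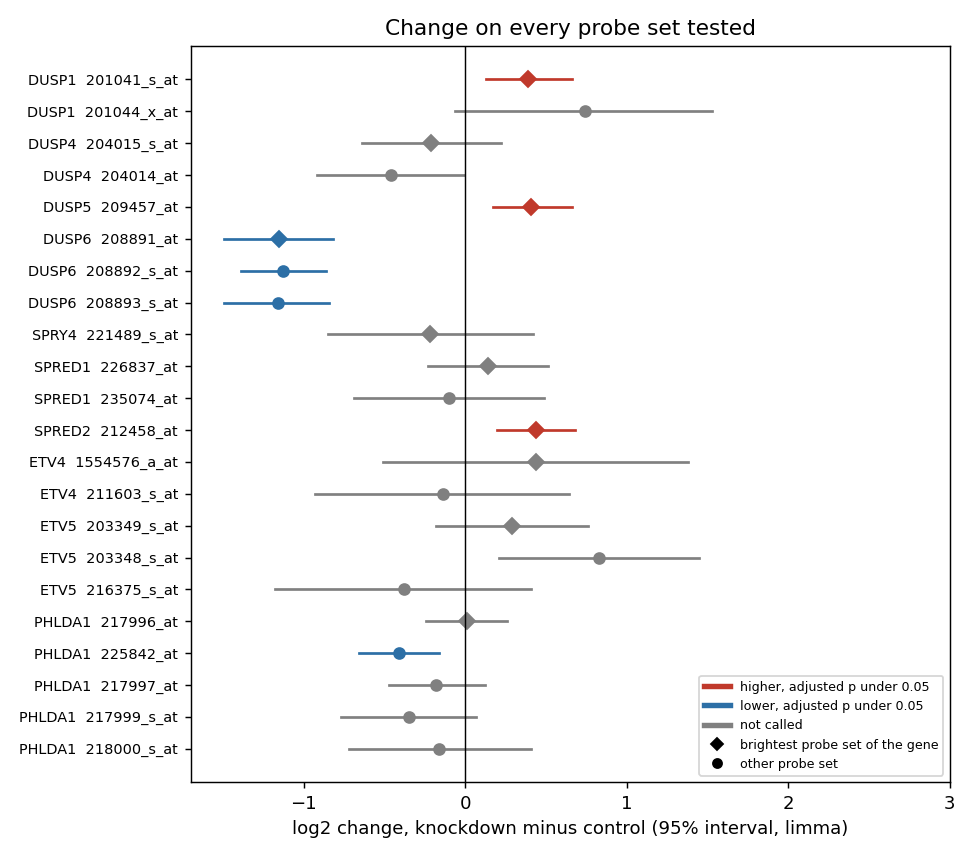
Log2 change (knockdown minus control) with its 95% interval for the 22 probe sets tested; red marks called higher, blue called lower and grey not called, and diamonds the brightest probe set of a gene. The 3 DUSP6 intervals lie between -1.49 and -0.82 and stand apart from those of every other phosphatase probe set except the lower end of DUSP4 204014_at.

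The 3 rises and the PHLDA1 fall were smaller than the DUSP6 fall and less firm. Under the 14 other settings DUSP1 201041_s_at was called in 8, DUSP5 in 8, SPRED2 212458_at in 10 and PHLDA1 225842_at in 9, and none of these 4 changed sign. With the mean over all probe sets of a gene in place of the brightest, DUSP6 (log2 change -1.15, adjusted p = 0.00052) was called. DUSP1 (0.56, adjusted p = 0.15), SPRED2 (0.26, adjusted p = 0.54) and PHLDA1 (-0.22, adjusted p = 0.26) were not. The SPRED2 mean takes in probe sets that were present on no array. DUSP5 was called (0.41, adjusted p = 0.027), but it has a single probe set, so its mean is the same reading and no check of it.

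**Figure D4:**
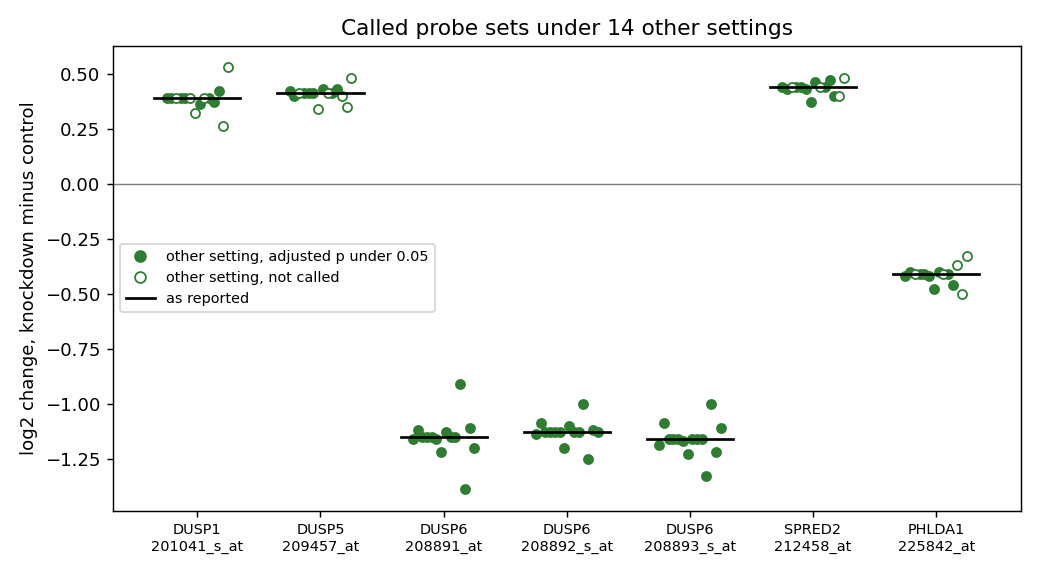
Log2 change (knockdown minus control) of the 7 called probe sets as reported (black line) and under each of 14 other settings (points, filled where the adjusted p was under 0.05). All DUSP6 points are filled and lie at or below -0.91, and points of the other 4 probe sets are open in 4 to 6 settings.

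Other genes of the same pathway were read from 8 lists of 101 genes, 97 of them tested on their brightest probe set. Of these 13 were higher (8.79% over all genes tested), 14 were lower (10.6%) and 70 were not called. Their median log2 change was 0.00 against 0.02 over all genes tested. Among 5 other MAP kinase phosphatase genes tested, 1 rose (8.79% of all genes tested did). It was DUSP10, whose product acts on p38 and JNK rather than on ERK. Its brightest probe set read 833 and 694 on the knockdown arrays and 292 and 225 on the control arrays, well apart, with a log2 change of 1.51 with SE 0.18 (adjusted p = 0.00031). The second probe set read 674 and 468 against 177 and 142 (log2 change 1.73, adjusted p = 0.00043). The 2.85-fold rise of DUSP10 was the largest change among the phosphatase genes tested here, and it was called under all 14 other settings.

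Of 2 Sprouty and SPRED genes tested outside the 10, SPRY2 rose (8.79% of all genes tested did), and SPRY1 gave 0.34 on the log2 scale (adjusted p = 0.21). SPRY2 read 599 and 590 against 370 and 358, with a log2 change of 0.68 with SE 0.15 (adjusted p = 0.011). It was present on all 4 arrays, at detection p between 0.0239 and 0.0303, near the limit of 0.05. Its call was lost without the variance trend (adjusted p = 0.054). Its adjusted p was 0.055 when control array 1 was left out and 0.066 when control array 2 was. Of 13 other genes tested within 5 megabases of SPRY2 on chromosome 13, 7 were higher and 1 was lower, with a median log2 change of 0.40. Whether that stretch bears on the value of SPRY2 was not tested.

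Of 12 other ETS factor genes 1 rose (8.79% of all genes tested did), 2 fell (10.6%) and 9 were not called. Their median log2 change was -0.08. ELK3, a ternary complex factor that acts with serum response factor, read 4384 and 3464 against 6100 and 6331 (log2 change -0.67, adjusted p = 0.0043), while its other probe set gave -0.18 (adjusted p = 0.75). ETS1 fell on its brightest probe set (log2 change -0.45, adjusted p = 0.044; 0.45 without control array 2, at -0.24, 0.065 without knockdown array 1 and 0.074 without knockdown array 2). EHF, an epithelial ETS factor, rose (0.45, adjusted p = 0.020; 0.058 without knockdown array 1, 0.086 without control array 1 and 0.17 without control array 2). A second EHF probe set was called higher too, at 276 and 235 against 96.9 and 99.5 (log2 change 1.25, adjusted p = 0.0049), and the other 3 tested were not called. The other ETS1 probe sets were not called, at log2 changes of -0.15 and -0.38 (adjusted p = 0.58 and 0.36). ETV1, the remaining PEA3 factor, was present on 1 array and gave -0.63 on the log2 scale (adjusted p = 0.30). The PHLDA1 relatives PHLDA2 and PHLDA3 were not called (0.33 and -0.06, adjusted p = 0.38 and 0.79).

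The cascade itself, from RAS to ERK and its kinases, was read on 27 genes. Among these 3 rose (8.79% of all genes tested did), 1 fell (10.6%) and 23 were not called, with a median log2 change of 0.03. MAPK3, which encodes an ERK kinase, gave 0.30 on the log2 scale (adjusted p = 0.27), and the MEK genes MAP2K1 and MAP2K2 gave 0.13 and 0.42 (adjusted p = 0.49 and 0.13). NRAS read 2656 and 2355 against 4212 and 4295 (log2 change -0.76, adjusted p = 0.00084), while its other probe set gave -0.15 (adjusted p = 0.40).

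RRAS, a RAS relative, gave 0.57 on the log2 scale (adjusted p = 0.031). NF1, the partner of the SPRED proteins, read 3491 and 2676 against 2225 and 2185, with a log2 change of 0.47 (adjusted p = 0.035). A second NF1 probe set was also called (log2 change 0.60, adjusted p = 0.024). The other NF1 probe sets tested were not called, at log2 changes between 0.12 and 0.73. On the brightest probe sets each call was lost without 3 of the 4 arrays in turn. The adjusted p of RRAS was 0.088 without knockdown array 2, 0.18 without control array 1, 0.097 without control array 2 and 0.037 without knockdown array 1. That of NF1 was 0.12 without knockdown array 1 (log2 change 0.28), 0.13 without control array 1, 0.15 without control array 2 and 0.0027 without knockdown array 2 (log2 change 0.66).

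The p38 and JNK cascades, on which DUSP1, DUSP4 and DUSP10 act, were read on 15 genes. Among them 2 rose (8.79% of all genes tested did), 2 fell (10.6%) and 11 were not called. MAP3K1, an upstream kinase of JNK, read 4049 and 3691 against 1621 and 1669 (log2 change 1.22, adjusted p = 4.3e-05), and its other probe set gave 0.78 (adjusted p = 0.072). MAPK13, which encodes p38 delta, read 1224 and 1472 against 2649 and 2463 (log2 change -0.92, SE 0.12, adjusted p = 0.00061), and its other probe set gave -0.80 (adjusted p = 0.0012). MAP2K3, which encodes a p38-activating kinase, had a log2 change of -0.54 (adjusted p = 0.022; 0.22 without control array 1). The other MAP2K3 probe sets tested were not called, at log2 changes of -0.25 and -0.49 (adjusted p = 0.26 and 0.065). MAPK11 was called higher (adjusted p = 0.034) on a probe set present on no array, so no fold is given. Its call was lost without knockdown array 2 (adjusted p = 0.19), without control array 1 (0.10) and without control array 2 (0.086).

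Among 9 receptor tyrosine kinase genes tested, 2 rose (8.79% of all genes tested did), 1 fell (10.6%) and 6 were not called. FGFR3, a fibroblast growth factor receptor, read 1896 and 2306 against 1009 and 641 (log2 change 1.36, SE 0.19, adjusted p = 0.00078). It rose although 38 of 66 other genes tested within 5 megabases on chromosome 4 were lower, at a median log2 change of -0.70. ERBB3 read 3774 and 4166 against 2177 and 1945 (0.94, SE 0.11, adjusted p = 0.00031). EGFR read 8553 and 10133 against 13269 and 12286 (log2 change -0.46, adjusted p = 0.024; 0.25 without control array 1 and 0.12 without control array 2). A second EGFR probe set was called lower as well (-0.43, adjusted p = 0.018), and the other 4 tested were not called. Of 12 other genes tested within 5 megabases of EGFR on chromosome 7, 9 were lower and none was higher, with a median of -0.79.

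Of 25 other transcripts that depend on ERK in many cell types, 8 fell (10.6% of all genes tested did), 3 rose (8.79%) and 14 were not called. Their median log2 change was -0.28 against 0.02 over all genes tested, and whether the list differs from other genes was not tested. The immediate early gene FOS, which encodes an AP-1 subunit, read 1151 and 1275 against 2285 and 2677 (log2 change -1.02, SE 0.12, adjusted p = 0.00033). TRIB1, a pseudokinase gene, read 1653 and 1575 against 2945 and 3457 (-0.98, SE 0.12, adjusted p = 0.00031). UPP1, a uridine phosphorylase gene, read 3548 and 3488 against 6245 and 8481 (-1.05, SE 0.14, adjusted p = 0.00058), with 21 of 38 other genes tested within 5 megabases on chromosome 7 lower, at a median of -0.62. HMGA2, a chromatin protein gene, went the other way, at 853 and 1003 against 322 and 254 (1.64, SE 0.17, adjusted p = 0.00012). The other called genes of this list were EGR1, SPHK1, LIF, FOSL1 and KCNN4, which were lower, and IER3 and GDF15, which were higher. These are named to complete the count.

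**Figure D5:**
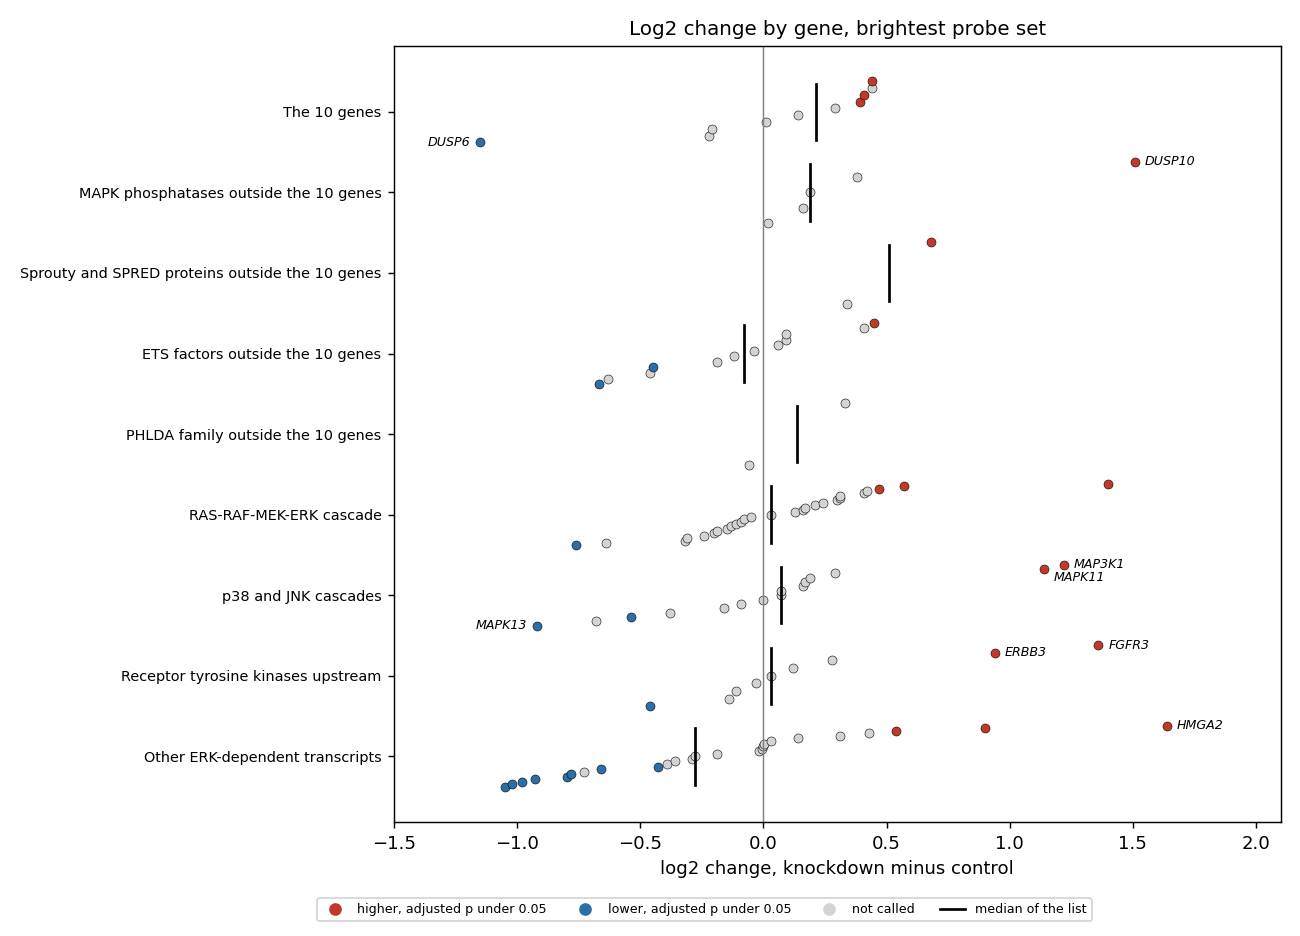
Log2 change (knockdown minus control) of each tested gene on its brightest probe set, for the 10 genes and 8 lists of the same pathway; red is called higher, blue called lower, grey not called, and the black line is the list's median. DUSP6 (-1.15) is the lowest of all genes plotted, DUSP10 (1.51) and HMGA2 (1.64) are the highest, and the medians of the lists lie between -0.28 and 0.51.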

How the data were processed

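Per the labels' protocols, RNA of the 4 samples was labelled with biotin in a one-cycle protocol and hybridised to Affymetrix arrays. The deposited intensity values are MAS5 signals per probe set, as the submitters' processing notes name them without a version. The deposited log2 columns held log2 signals centred per probe set on the median of the arrays (all 54675 rows within a tolerance of 1e-05 when recomputed) and were not tested further. A probe set was taken as present where its deposited detection p-value lay under 0.05, which gave the deposited number of present calls in all 54675 rows. MAS5 subtracts background before the signal is formed, so the background step could not be varied. Array number limits the precision.

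The 62 control probe sets were left out. Probe sets whose mean signal lay at or above the median of the other 54613 were tested, 27307 in all. The test was limma 3.58.1 in R 4.3.3 (eBayes with trend, two-sided, Benjamini-Hochberg over all probe sets tested) on log2(signal + 16). It had 2 residual and 8.71 prior degrees of freedom. It was tested on simulated data whose spread depended on mean signal alone, which cannot check the variance model. With 2 against 2 arrays an exact permutation test cannot go below a two-sided p of 0.333, so these p-values rest on the variance model. Gene names were taken through the Entrez number from the gene table of GRCh38.p14, or else from the file, for 40706 probe sets, and a gene was read on its brightest single-gene probe set. The named genes are the 10, SPINT1, and from each list up to 4 called genes with the largest moderated statistic, or the 2 with the highest signal where none was called. SPRY1, ETV1, MAPK3, MAP2K1, MAP2K2 and the remaining called genes of the last list fall outside this rule and were chosen after their values were seen. The genes, lists and tests were chosen with earlier results of these data known. The labels number the arrays of each group as experiments 1 and 2 without saying what a number shares. Promoter sequences are RefSeq's. Some genes that enter the counts are not reported here by name.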

Additional observations from a re-analysis of the deposited data

How the results depend on the processing

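Beside the fit as reported, 14 settings were tried, and gene means over probe sets as well. Centring on the median of all probe sets was added after seeing the data. Of 298 values over the 22 probe sets tested, 263 kept direction and side of the threshold, 21 lost a call, 4 gained one and 10 reversed. DUSP6 kept its call on all 3 probe sets in all 14. The 4272 calls over all probe sets became 2211 with no filter and 1491 with no variance trend, and lay between 2163 and 4719 with 1 array left out. The share of calls that were higher was 46.8% as reported and 35.1% with arrays centred on the median of all probe sets, which moves every log2 change by 0.071 toward lower. The count of higher probe sets, and of higher genes, among the 10 genes (3 and 3) was 0 without the filter, 0 without the trend and 1 with that centring, and the gene count was 1 with the mean over a gene's probe sets. With 1 array left out both counts lay between 0 and 4, and were 0 without either control array. The 27 calls in the 8 lists became 16 without the filter, 9 without the trend and 17 with the mean over a gene's probe sets, and lay between 15 and 30 with 1 array left out. Here the lone array of a group is assumed to vary like the others.

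No called value reversed. PHLDA1 217996_at had a log2 change of -0.06 with centring on all probe sets, -0.0029 with quantile normalisation, and a range from -0.09 (without control array 1) to 0.11 with 1 array left out, with -0.05 without knockdown array 2. With 1 array left out, SPRED1 226837_at lay between -0.04 (without knockdown array 1, and also without control array 1) and 0.32, and 235074_at between -0.28 and 0.08 (without control array 1). ETV4 211603_s_at lay between -0.49 and 0.21 (without knockdown array 1), 1554576_a_at between -0.31 (without knockdown array 2) and 1.18, and DUSP4 204015_s_at between -0.51 and 0.09 (without control array 2). PHLDA3 lay between -0.17 and 0.04 (without control array 1) and PHLDA2 between -0.02 (without control array 2) and 0.68. The cause of these changes was not tested. With the experiment number as a replicate block, 4581 probe sets were called, and the counts among the 10 genes were 3 higher and 1 lower, with no call changed. Deviations of same-numbered arrays correlated at -0.024, and the numbers were not treated as pairs. Dim probe sets, ETV4 and SPRY4 among them, limit what can be seen.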
